A study of Mus musculus with 160 samples.

Results

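The genes described here are 33 integrin and laminin subunits, taken by their symbols from the 46078 genes of the count table. They are 16 integrin α subunits and 7 integrin β subunits, and, of the laminins, 5 α, 3 β and 2 γ chains. All 33 were found in the table. Among those the results turn on, Itgam (ENSMUSG00000030786) lies at chr7:128062640-128118491, Itgb1 (ENSMUSG00000025809) at chr8:128685654-128733200 and Lama5 (ENSMUSG00000015647) at chr2:180176373-180225859 in GRCm38. Their RNA was measured in sorted cells of the aorta-gonads-mesonephros (AGM) region of mouse embryos with the genotype Gata3-GFP +/-, a knock-in reporter line. Every cell sorted, GFP+ or GFP-, therefore carried the modified allele beside an unmodified one, and no wild-type cells were compared. At E10.5 the populations were endothelial cells (ECs, sorted as Cdh5+ CD41- CD45-) and haematopoietic cells (HCs, sorted on CD41 and CD45), and at E11.5 they were mesenchymal cells (MCs, Pdgfrb+) and cells of the sympathetic nervous system (SNS, Ngfr+). Each was split into a Gata3-GFP+ and a Gata3-GFP- fraction and collected as 20 pools of 20 cells, which gave 8 populations and 160 pools. For ECs and HCs the study's methods give several biological replicates, each of several embryos, and the labels do not say which pool came from which replicate, so the p-values measure the spread between pools, part of which may be technical.

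Integrins are receptors made of an α and a β subunit that join the cell to the matrix or to other cells, and the pairing sets the ligand. The β1 chain pairs with most α chains, the αL, αM and αX chains pair with β2 on leukocytes, and α4 pairs with β1 or β7. Laminins are trimers of an α, a β and a γ chain and are the main glycoproteins of basement membranes, including those under the endothelium from which blood cells emerge in the AGM.

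Of the 160 pools, 7 failed the study's limits on reads, and the others hold 1400824 to 16004756 counts on genes each. Levels below are CPM over library sizes scaled with TMM, and a level compared between genes is given per kilobase of exon. Reads were amplified without molecular identifiers, so the spread between pools is the error in every test. Gata3 itself had a median of 77.9 CPM in Gata3-GFP+ ECs against 10.45 CPM in Gata3-GFP- ECs, and 45.04 against 7.02 CPM in the HC fractions.

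In the E11.5 pools, 12 libraries went against their label, 3 in each of the 4 populations. The 3 labelled Gata3-GFP+ MC and the 3 labelled Gata3-GFP- MC had more summed sympathetic and glial than mesenchymal marker RNA, with Pdgfrb at 0.952 to 12.4 CPM and Ngfr at 28.9 to 323 CPM. The 6 labelled SNS had the reverse, with Pdgfrb at 116.5 to 249 CPM and Ngfr at 0.904 to 7.73 CPM. In all but 1 of them Gata3 also lay outside the range of the GFP fraction on the label when each was set beside the other pools of the cell type its markers show. With sympathetic markers, it was 122.6 to 395 CPM in the 3 labelled Gata3-GFP- MC and 16.2 to 82.2 CPM in the 3 labelled Gata3-GFP+ MC, where the other pools had 11.2 to 93.9 CPM in Gata3-GFP- SNS and 111.05 to 306 CPM in Gata3-GFP+ SNS. With mesenchymal markers, it was 44.3 to 50.1 CPM in the 3 labelled Gata3-GFP- SNS, above the other Gata3-GFP- MC pools (2.52 to 19.02 CPM), and 9.96 to 24.3 CPM in the 3 labelled Gata3-GFP+ SNS, which reached below the other Gata3-GFP+ MC pools (19.7 to 70.4 CPM). In the other pools Pdgfrb was at least 110 CPM in MC pools and at most 28.8 CPM in SNS pools. No library was given another label here, and E11.5 results follow with and without these 12 except where stated, a choice made after seeing the data. Without them Gata3 had a median of 35.9 against 8.96 CPM in the MC fractions and 187.8 against 39.3 CPM in the SNS fractions.

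**Figure D1:**
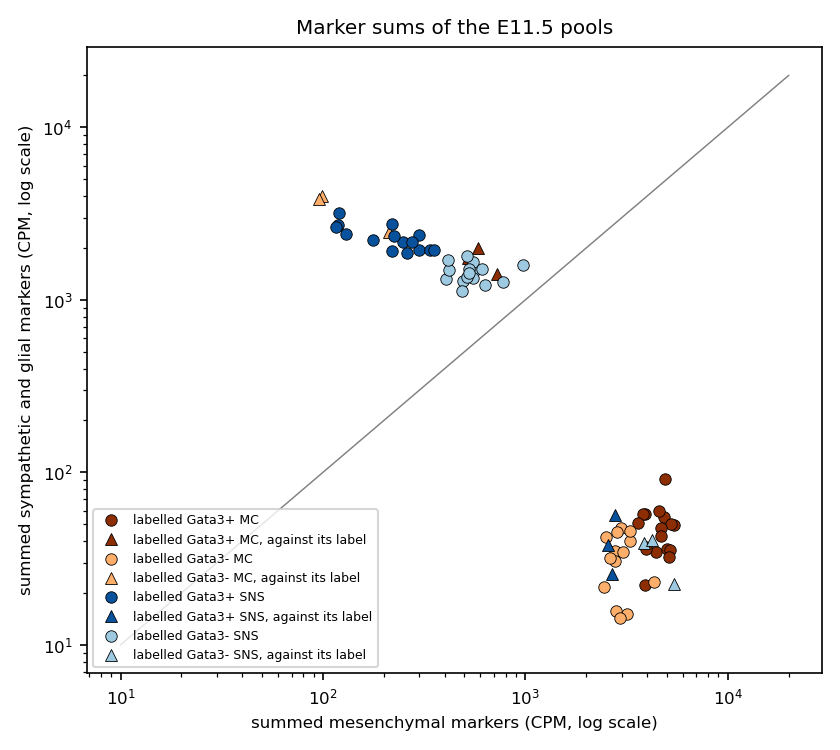
Marker RNA of the E11.5 pools: each point is a pool, with the summed mesenchymal markers on the x axis and the summed sympathetic and glial markers on the y axis (both in CPM of the pool's total, log scales), and the line marks equal sums. The 12 triangles are the libraries that lie among the pools of the other cell type, 3 for each label.

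Over the 8 populations the subunits fell into widely present and narrowly present ones. Itgb1, Itga4, Itga5, Itga6, Itga9, Itgav and Lamc1 had at least 10 counts in most pools of all 8 populations. Itga7, Itga10, Itga11, Itgae, Itgax, Itgb6 and Lamb3 reached that in no population, and their highest median was 1.79 CPM, for Lamb3 in Gata3-GFP+ ECs. Itga10 shares 33.5% of its exon bases with Gm42957, a gene of the table on the same strand, so its level is uncertain. Per kilobase, Itgb1, the common β1 chain, had the highest median of the 33 in every population, from 54.7 CPM per kb in Gata3-GFP- HCs to 180 in Gata3-GFP+ ECs.

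After Itgb1, the order of the levels per kilobase differed by cell type. In Gata3-GFP+ ECs the next was Itga5, the fibronectin receptor chain, with a median of 46.5 CPM per kb. Itga6, a laminin-binding chain, was next in Gata3-GFP- ECs with 25.1 CPM per kb. In both HC fractions it was Itgb2, the leukocyte β2 chain, at 22.9 and 25.1 CPM per kb. In MC pools it was Itgb5, which binds vitronectin with αV, at 20.9 and 14.04 CPM per kb in the GFP+ and GFP- fractions, and in SNS pools it was Itga6 at 10.4 and 18.99 CPM per kb. Without the 12 libraries the same genes were next, at 21.7 and 15.6 CPM per kb for Itgb5 and at 10.9 and 19.5 for Itga6.

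Within a gene, neighbouring populations in the order of medians overlapped in their pools in 229 of 231 comparisons. The exceptions were Lama3 between Gata3-GFP+ ECs and the next population, Gata3-GFP+ HCs, and Itgb2 between Gata3-GFP+ HCs and the next, Gata3-GFP+ ECs. Itgb2 ran from 31.01 to 290 CPM in Gata3-GFP+ HC pools and from 0 to 10.02 CPM in Gata3-GFP+ EC pools. Pairs with a median of 0 in both populations, such as those of Itgax, overlap by construction. The overlaps were counted over all passing pools, and not over all genes or without the 12 libraries. The population with the highest median was the same for 32 of the 33 genes without the 12 libraries.

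**Figure D2:**
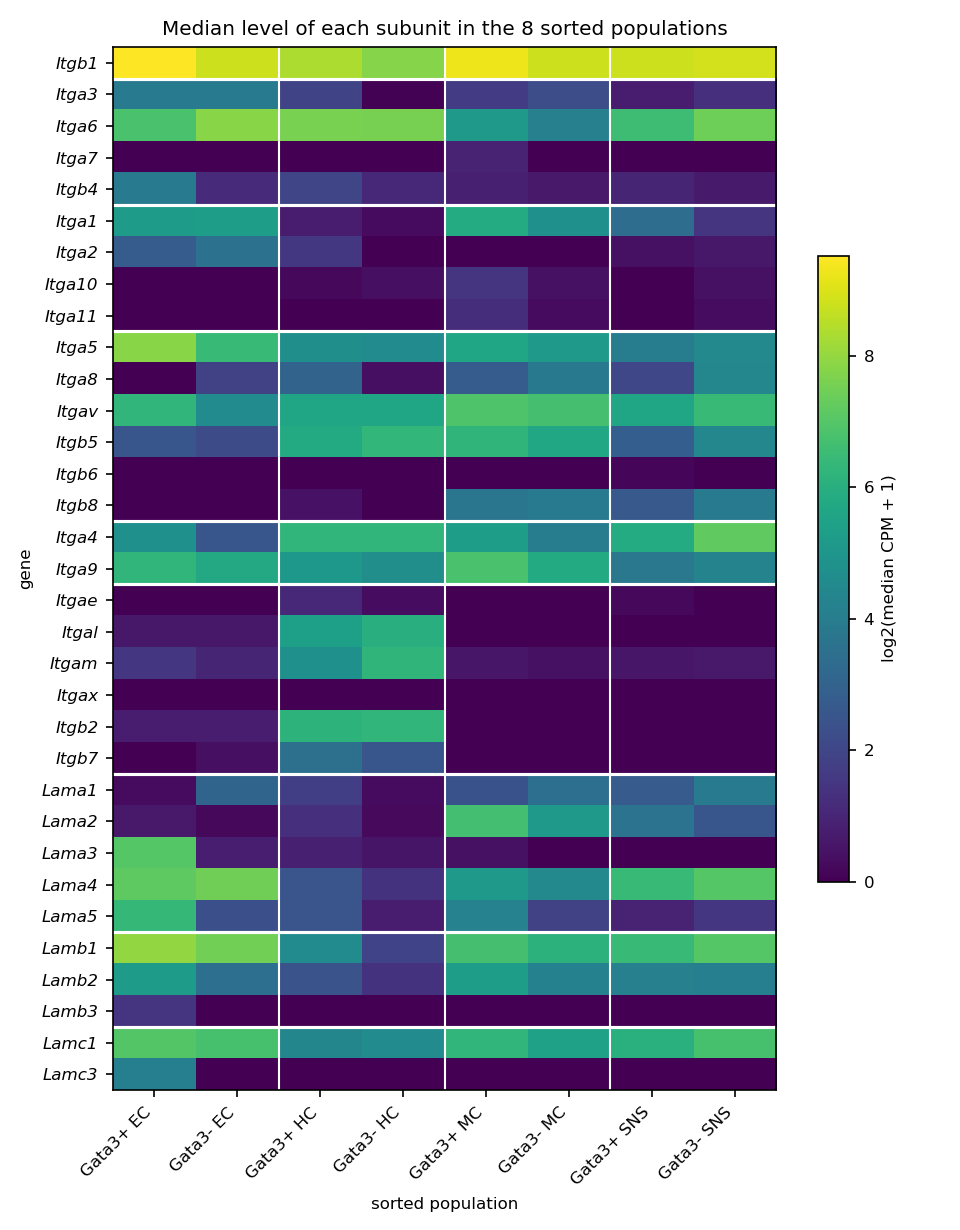
Median level of each of the 33 subunits in the 8 sorted populations, as log2(median CPM + 1), with genes in rows by their role and populations in columns. Colours compare populations along a row and not genes, since the values are not per kilobase, and the leukocyte chains Itgal, Itgam and Itgb2 are high in the HC columns while Lama3 and Lamc3 are high in the Gata3-GFP+ EC column.

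Gata3-GFP+ ECs were compared with Gata3-GFP- ECs to find how the subunits differ with Gata3 expression in endothelium. Of the 10 laminin chains 6 were higher in Gata3-GFP+ ECs, by 0.38 to 6.34 on the log2 scale, and Lama4 was lower. The integrin chains β4, α5, αV, α4 and β1 were higher and α6 was lower. Of the 33 genes, 22 had at least 10 counts in at least 5 pools and were tested. With edgeR, at an adjusted p under 0.01 and a log2 change beyond 0.1, 11 of them passed as higher and 2 as lower with Gata3-GFP, where 19.5% of all 15073 genes tested were higher and 16.5% lower. The median log2 change was 0.57 over the 22 and 0.10 over all genes. The 33 genes, and the gene lists further down, were chosen with earlier results of these data known. A share of them above that of all genes is therefore no independent result. In pools of cells, a larger share of cells with an RNA and more of it per cell cannot be told apart.

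The 3 largest rises were in laminin chains. Lamc3, the γ3 chain, ran from 0 to 31.4 CPM with a median of 16.4 CPM in the 19 Gata3-GFP+ EC pools, and from 0 to 2.14 CPM with a median of 0 in the 20 Gata3-GFP- EC pools. Its log2 fold change was 6.34 ± 0.63 (SE) with an edgeR adjusted p of 3.15e-11, and 17 of the 19 GFP+ pools were above every GFP- pool. Lama3, the α chain of the laminins that bind α6β4 integrin, ran from 56.97 to 232 CPM (median 129.04) against 0 to 22.7 CPM (median 0.737). It was higher by 6.05 ± 0.42 on the log2 scale (adjusted p = 1.14e-15, edgeR), and the pools of the 2 fractions did not overlap. Lamb3, which joins the α3 chain in the same laminin, was near the limit of detection, from 0 to 8.03 CPM (median 1.79) against 0 to 0.804 CPM (median 0), with a log2 fold change of 4.20 ± 0.70 (adjusted p = 3.55e-06, edgeR). Only 7 of the Gata3-GFP+ EC pools reached 10 counts of it. Lamc3 and Lamb3, with medians of 0 in Gata3-GFP- ECs, reached the filter of the test mainly through the GFP+ pools. With a filter of 10 counts in at least 20 pools, 10 of the genes called in ECs kept their call and 1 lost it. The others were not tested.

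The other laminin chains differed less, and 1 of them was lower. Lama5, the α5 chain of vascular and epithelial basement membranes, ran from 34.6 to 117.6 CPM (median 79.3) against 0 to 13.3 CPM (median 4.04), again without overlap, with a log2 fold change of 3.97. Lamb2 was higher by 1.77 and Lamb1 by 0.38 on the log2 scale. Lama4, the α4 chain found in vessel walls, had the opposite direction, with 70.7 to 211 CPM (median 142.01) against 114.1 to 244 CPM (median 175), a log2 fold change of -0.37 ± 0.12 (adjusted p = 0.00841, edgeR) and pools that overlapped. That call was lost in several other fits, with the largest adjusted p, 0.370, when all 8 populations were fitted together, a fit that also lost Lamb1 (0.42, adjusted p = 0.0623). Lamc1 (0.22), Lama2 (2.41) and Lama1 (-1.86) did not pass the test.

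Among the integrins, Itgb4, the β chain that pairs with α6 alone, rose most. It was 1.44 to 50.4 CPM (median 13.95) in Gata3-GFP+ ECs and 0 to 3.66 CPM (median 1.21) in Gata3-GFP- ECs, with a log2 fold change of 3.48. Its partner chain Itga6 was lower, with medians of 110 and 226 CPM, at most 252 CPM in GFP+ and 362 CPM in GFP- pools, and a log2 fold change of -0.96 ± 0.15 (adjusted p = 1.04e-06, edgeR), and 15 of the 19 GFP+ pools lay below every GFP- pool. Itgav rose by 1.88 and Itga5 by 1.23 on the log2 scale, 2 chains that bind ligands with an RGD motif. Itga4, which binds VCAM1 and fibronectin, rose by 1.86 from medians of 4.79 to 26.2 CPM, with overlapping pools, and Itgb1 rose by 0.66. Itga1, Itga2, Itga3, Itga8, Itga9 and Itgb5 were tested and not called, with log2 changes from -1.40 to 0.49, and the remaining 11 genes, the 6 leukocyte chains among them, were too low to test.

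**Figure D3:**
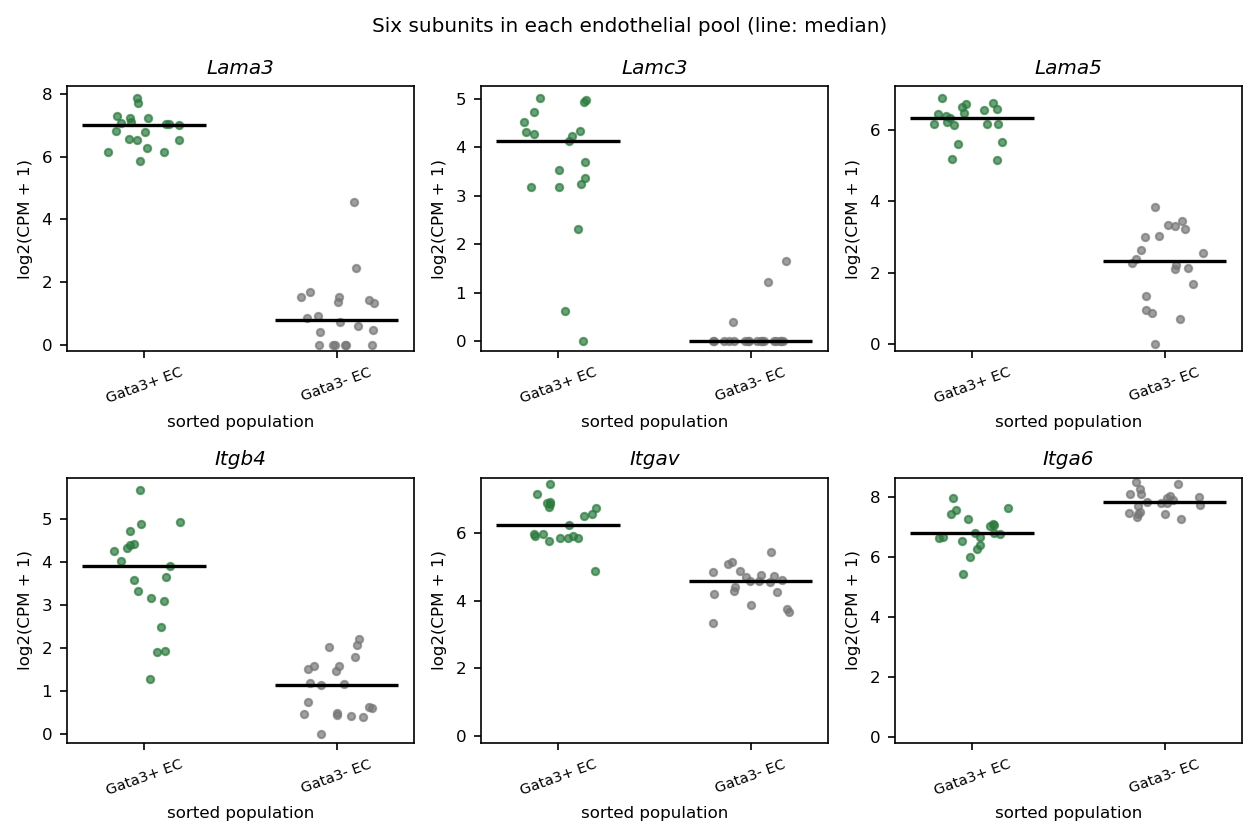
Levels of 6 subunits in each endothelial pool as log2(CPM + 1), with 19 Gata3-GFP+ and 20 Gata3-GFP- pools as points and the median as a line. Lama3 and Lama5 separate the fractions without overlap, and Itga6 is the gene of the 6 that is lower in the Gata3-GFP+ pools.

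The direction of the small EC differences depends on the scaling. When counts were scaled by the ERCC spike-in RNAs, the median log2 change of all genes in ECs moved from 0.10 to -0.60, and 8 members were then higher and 5 lower in place of 11 and 2. Under that scaling Itgb1 had a log2 change of -0.02 and Lamb1 of -0.21, both still above the median of all genes and neither past the test, and Itga4 (1.17) lost its call (adjusted p = 0.0155, edgeR). Markers of other cell types also moved with the GFP fraction. Summed over 8 epithelial markers the level was 22.3 to 124.3 CPM in Gata3-GFP+ EC pools against 0.349 to 8.88 CPM, but 1 of the 8 alone, Krt18, reached 10 counts in most GFP+ pools, and Epcam had a median of 0.232 CPM. The 5 mural markers summed to 12.6 to 3291 CPM against 3.30 to 29.6 CPM, with Acta2 and Tagln reaching 10 counts in most GFP+ pools. The 8 mesenchymal markers summed to 15.6 to 1518 against 3.61 to 71.996 CPM and the 4 neuronal ones to 261 to 836 against 14.4 to 147.45 CPM, almost all of the latter from Stmn2. The 7 haematopoietic markers summed to 167.7 to 429 CPM against 40.1 to 125.7 CPM, with no overlap. The 9 endothelial markers were high in both fractions, at 6770 to 9269 and 4471 to 6157 CPM. The part of these markers in the member differences was not tested, and without the Gata3-GFP+ EC pool with over 1000 CPM of mesenchymal markers all 13 genes kept their direction and passed the test, and 3 in place of 2 were then lower.

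The partners of these subunits in ECs are set beside the 19.5% of all genes that were higher and the 16.5% that were lower. Of 13 matrix ligands, 10 were tested, 7 were higher and 1 lower, led by Postn (4.78), Fn1 (3.39), Npnt (3.12) and Agrn (2.08) as log2 fold changes. Other laminin receptors counted 6 higher and 1 lower of 8, with Bcam, a receptor of the laminin α5 chain, at 4.73 and Sdc1, a heparan sulphate proteoglycan, at 2.36. Cell-surface ligands counted 3 higher of 7 tested, among them Vcam1, the ligand of α4 integrin, at 4.02. Of 21 integrin activators and adaptors, 19 were tested, 3 were higher and 5 lower, with Tln2 at -2.69 and Ptk2b at 2.33, which is near those shares. Of the subunits outside the 33, Itgb3 was higher by 1.97 on the log2 scale, and 2 were tested.

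The HC fractions were compared in the same way. Gata3-GFP+ HCs had higher levels of 5 laminin chains and 3 integrin α chains that were low in Gata3-GFP- HCs, higher β1 integrin, and lower αM integrin. Of 25 genes tested 9 were higher and 1 lower, where 17.1% of the 16200 genes tested were higher and 9.53% lower. The median log2 change was 0.70 over the 25 and 0.05 over all genes.

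Itga3, a laminin-binding α chain, had the largest rise. It was 0 to 23.3 CPM (median 2.88) in the 20 Gata3-GFP+ HC pools and 0 to 1.17 CPM (median 0.0494) in the 20 Gata3-GFP- HC pools, and differed by 4.48 ± 0.69 on the log2 scale (adjusted p = 1.84e-06, edgeR). Itga2, a collagen receptor chain that is also found on platelets and megakaryocytes, was 0 to 11.8 CPM (median 1.88) against 0 to 1.68 CPM (median 0), with a log2 fold change of 3.59 ± 0.71 (adjusted p = 8.33e-05, edgeR). Lama5 was 0 to 50.8 CPM (median 4.70) against 0 to 5.98 CPM (median 0.700), with a log2 fold change of 3.09 ± 0.60 (adjusted p = 6.13e-05, edgeR). In all 3 the pools overlapped, and medians stayed below 5 CPM, so that 10, 8 and 11 of the 20 GFP+ pools reached 10 counts.

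The laminin chain with the most RNA of those that rose was Lamb1, at 3.16 to 57.6 CPM (median 23.1) against 0.286 to 8.09 CPM (median 2.75), with a log2 fold change of 3.04, and 17 of 20 GFP+ pools were above every GFP- pool. Itga8, which binds nephronectin, rose by 3.002, Lama2 by 2.83, Lama1 by 2.72 and Lama4 by 2.42 on the log2 scale. These 4 genes were low, with medians in that order of 7.11, 1.45, 2.45 and 4.64 CPM in Gata3-GFP+ HCs. In Gata3-GFP- HCs the medians were 0.323, 0.173, 0.199 and 1.6004 CPM. Of the 20 GFP+ pools, 15, 8, 7 and 13 reached 10 counts, and the pools of the fractions overlapped in all 4. Itgb1 rose by 0.61, from medians of 223 to 328 CPM. Itgam, the αM chain of the complement receptor of myeloid cells, was the only gene called lower: 0.997 to 67.4 CPM (median 26.2) against 34.6 to 133.5 CPM (median 75.1), a log2 fold change of -1.50 ± 0.26 (adjusted p = 1.40e-05, edgeR). The 2 fractions overlapped in Itgam, with 14 of 20 GFP+ pools below every GFP- pool.

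The other leukocyte chains did not pass the test, at log2 changes of -0.54 for Itgal, 0.16 for Itgb2, 1.04 for Itgb7 and 0.15 for Itgax, and Itgae was too low to test. Itga1, Itga4, Itga5, Itga6, Itga9, Itgav, Itgb4, Itgb5, Itgb8, Lamb2 and Lamc1 also did not pass, from -0.53 to 1.94. Itga7, Itga10, Itga11, Itgb6, Lama3, Lamb3 and Lamc3 were not tested.

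**Figure D4:**
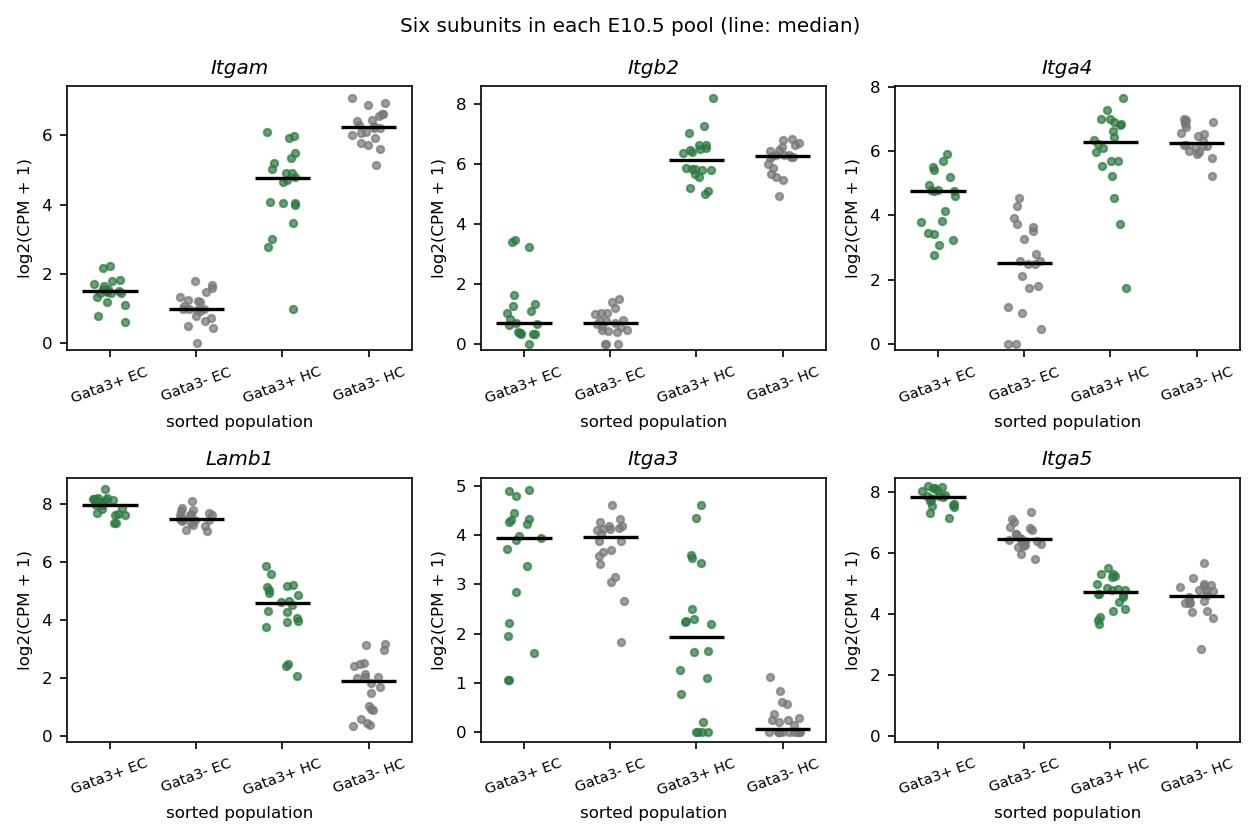
Levels of 6 subunits in each E10.5 pool as log2(CPM + 1), with 19 or 20 pools per population as points and the median as a line. Itgam is lower in Gata3-GFP+ than in Gata3-GFP- HCs while Itgb2 overlaps between the 2 HC fractions, and Lamb1 is above most Gata3-GFP- HC pools in the Gata3-GFP+ HC pools but below all EC pools.

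Markers of other cells moved with the HC fraction too. The 8 mesenchymal markers summed to 16.3 to 934 CPM (median 346) in Gata3-GFP+ HC pools, all 8 of them with 10 counts in most of the pools, and to 3.37 to 161.5 CPM (median 36.02) in Gata3-GFP- HC pools. The 8 sympathetic markers ran from 7.14 to 1383 CPM against 0.571 to 8.35 CPM, the 6 megakaryocyte markers from 1654 to 59235 CPM against 136.45 to 3863 CPM, and the 9 endothelial ones from 115.02 to 647 CPM against 61.4 to 208 CPM. The 8 macrophage markers had medians of 4274 and 5567 CPM. The 7 haematopoietic markers were lower without overlap, at 1136 to 3276 CPM against 3315 to 4826 CPM. The medians of the mural (75.8 against 11.497 CPM), neuronal (92.9 against 10.08 CPM) and epithelial sums (46.5 against 8.37 CPM) were higher in Gata3-GFP+ HCs. What these cells contributed to the laminin and integrin differences was not tested. Without the 3 Gata3-GFP+ HC pools with over 500 CPM of sympathetic or under 100 CPM of macrophage markers, 8 genes were higher and 1 lower, and Lama1 no longer passed (1.92, adjusted p = 0.0306, edgeR). With a filter of 10 counts in at least 20 pools 2 genes were called higher, Itgb1 and Lamb1, and the other 7 were not tested.

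For the lists around the members in HCs, the shares over all genes were 17.1% higher and 9.53% lower. Of 12 matrix ligands tested 10 were higher, with Thbs1 at 3.90, Postn at 3.76, Tnc at 3.14 and Npnt at 3.11 on the log2 scale. Integrin activators and adaptors counted 12 higher and 3 lower of 19, led by Fermt1, an epithelial kindlin (6.44), and the parvins Parvb (3.95) and Parva (3.92). Other laminin receptors counted 7 higher and 1 lower of 8, with Bcam at 6.06. Among cell-surface ligands 5 were higher and 1 lower of 7, with Cdh1 at 4.92 and Vcam1 at 3.14. The platelet integrin chains Itga2b and Itgb3 were higher by 3.68 and 4.10, and Itgb2l was lower by 5.20 on the log2 scale.

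The promoters of 3 genes are shown here because these genes carry these results: Itgam was lower in Gata3-GFP+ HCs, Lama5 was higher in Gata3-GFP+ ECs and HCs, and Itgb1 was higher in both as well. The bases are the 250 before the start of the RefSeq gene in GRCm38.p6, 5′ to 3′ on the gene's strand, and capitals mark GAGGAA, the core of sites bound by the myeloid factor PU.1, or its reverse complement TTCCTC. They lie at chr7:128062390-128062639 (+) for Itgam, chr8:128685404-128685653 (+) for Itgb1 and chr2:180225860-180226109 (-) for Lama5.
Itgam: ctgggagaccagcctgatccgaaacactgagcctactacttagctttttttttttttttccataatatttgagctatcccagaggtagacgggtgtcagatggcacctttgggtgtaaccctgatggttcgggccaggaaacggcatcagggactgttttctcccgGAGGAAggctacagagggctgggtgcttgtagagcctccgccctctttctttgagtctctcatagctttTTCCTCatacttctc
Itgb1: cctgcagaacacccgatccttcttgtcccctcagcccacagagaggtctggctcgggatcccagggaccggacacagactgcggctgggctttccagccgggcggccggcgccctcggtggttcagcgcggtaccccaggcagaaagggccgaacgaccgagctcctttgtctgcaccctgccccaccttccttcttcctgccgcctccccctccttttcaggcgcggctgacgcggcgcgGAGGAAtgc
Lama5: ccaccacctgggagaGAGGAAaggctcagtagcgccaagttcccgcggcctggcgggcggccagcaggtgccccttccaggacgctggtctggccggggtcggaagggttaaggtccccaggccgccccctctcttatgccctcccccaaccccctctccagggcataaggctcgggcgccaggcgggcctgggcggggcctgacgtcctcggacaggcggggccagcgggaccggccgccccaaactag
The RefSeq table held promoters of 22 of the 33 genes, and Itga6, Itga7, Itgae, Itgal, Itgb2, Itgb4, Lama1, Lama3, Lama4, Lamc1 and Lamc3 were not among them. These 22 genes had 25 windows of 250 bases. GAGGAA was found on either strand in 12 of the 25 windows, from 12 of the 22 genes, and in 23.3% of all 32851 windows of that length. The Itgam window held it 2 times, 84 and 15 bases before the start, and Itgb1 and Lama5 held it 1 time each, 9 and 235 bases before. A GATA site was searched on both strands as AGATAA and as AGATAG, and as the same words with T first (TGATAA, and then TGATAG). It was in 2 of the 25 windows, from 2 of the 22 genes, Itgax and Itgb7, and in 26.5% of all windows. These are letters in a window and say nothing of binding.

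HCs as a whole were next compared with ECs as a whole, as the mean of the 2 fractions in each. Macrophage markers summed to medians of 4274 and 5567 CPM in the Gata3-GFP+ and Gata3-GFP- HC fractions, and megakaryocyte markers to 9622 and 591 CPM. In the EC fractions the medians were 39.3 and 50.1 CPM for macrophage and 48.3 and 73.8 CPM for megakaryocyte markers. The megakaryocyte sum includes Itga2b, the gene of the sort marker CD41. The part of these cells in the differences below was not tested. Leukocyte chains, Itgb5 and Itga4 were higher in HCs, and laminin chains with the integrin chains α1, α2, α3, α5 and α9 were lower. All 33 genes were tested in a fit of the 8 populations, and 9 were higher and 14 lower in HCs, where 27.6% of the 20080 genes tested were higher and 22% lower. The 9 higher, 27.3% of the 33, are near the share over all genes. The median log2 change was -0.02 over the 33 and 0.10 over all genes.

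Itgb2 had the largest rise, from 29.4 to 290 CPM over the 40 HC pools (medians 69.8 and 76.5 in the GFP+ and GFP- fractions) and from 0 to 10.02 CPM over the 39 EC pools (medians 0.647 and 0.636). Its log2 difference was 6.004 ± 0.34 (adjusted p = 1.81e-34, edgeR), with no overlap. Itgal, the αL partner of β2, had medians of 40.5 and 63.3 CPM in the HC fractions and 0.535 and 0.520 CPM in the EC fractions, and differed by 5.596 ± 0.34 (adjusted p = 9.14e-32, edgeR). Itgb7, the β partner of α4 and αE, had medians of 10.6 and 4.85 CPM against 0 and 0.296 CPM, with a difference of 5.02 ± 0.58 (adjusted p = 8.55e-14, edgeR). Of the 40 HC pools, 37 were above every EC pool in Itgal and 26 in Itgb7, so both overlapped.

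Itgam was higher by 4.96, Itgb5 by 3.53 and Itga4 by 2.68 on the log2 scale, and 30 of 40 HC pools were above every EC pool in Itga4. Itgax had 150 counts in 12 of the 40 HC pools and 0 in the 39 EC pools. Set against a floor of 3 counts over all EC pools, its level in HCs was 36.1-fold higher. Reads were amplified without molecular identifiers and the counts lay in few pools, so that ratio is no lower bound. With it in place of the fitted value the median of the 33 stayed at -0.02. Itga11 (2.30) and Itgb6 (1.94) were called higher at group means of 0.428 and 0.250 CPM, with 2 and 1 HC pools at 10 counts. Itgb6 was not called without the 3 Gata3-GFP+ HC pools (1.51, adjusted p = 0.0134, edgeR).

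The 3 largest falls were in Lama4, Lamb1 and Lama3. Lama4 had medians of 4.64 and 1.6004 CPM in the HC fractions against 142.01 and 175 CPM in the EC fractions, a log2 difference of -5.30 ± 0.26 (adjusted p = 2.34e-43, edgeR) with no overlap. Lamb1 fell by 4.72 ± 0.16 (adjusted p = 2.29e-61, edgeR), from medians of 253 and 180 CPM in ECs to 23.1 and 2.75 CPM in HCs, also with no overlap. Lama3 fell by 3.92 ± 0.43 (adjusted p = 7.36e-15, edgeR), but its Gata3-GFP- EC pools were as low as the HC pools, with medians of 0.737 against 0.778 and 0.459 CPM. Itga5 (-2.54) and Lamc1 (-2.37) were lower with no overlap, and Itga1, Itga2, Itga3, Itga9, Itgb1, Lama1, Lama5, Lamb2 and Lamc3 were lower with overlapping pools, from -3.91 to -1.04. Itga6 (0.28), Itgav (0.25) and the 8 others did not pass the test.

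The matrix list split in the same contrast, in which 27.6% of all genes were higher and 22% lower, with 5 of 13 higher and 7 lower: Hspg2, or perlecan (-5.53), and Nid1 (-5.30) of the basement membrane were lower and Thbs1 (4.87) was higher. Activators and adaptors counted 13 higher and 6 lower of 21, with the leukocyte forms Fermt3 (5.52) and Parvg (5.503) higher, and the 6 lower are near the share over all genes. Of 8 cell-surface ligands 6 were lower, among them Madcam1 (-7.00) and Icam2 (-4.10), and other laminin receptors counted 3 higher and 5 lower of 8. Itgb3 (4.05) was higher in HCs. So was Itga2b (4.31), but it encodes CD41, on which the cells were sorted, so its direction was set by the sort.

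Whether the GFP difference itself differed between HCs and ECs was tested by an interaction in the fit of 8 populations. It passed for 14 of 33 genes, where 22.1% of the 20080 genes tested passed in either direction. In 6 the change with GFP was more positive in HCs: Lama1 (4.55 ± 0.85), Itga2 (4.47), Itga3 (4.46), Itga8 (4.42), Lama4 (2.88) and Lamb1 (2.69). In 8 it was more positive in ECs, led by Lama3 (-4.27 ± 0.89), Lamc3 (-3.81) and Itgb4 (-2.50), followed by Itgal, Itgam, Itgav, Itga4 and Itga5. Itgal and Itgam were too low to test within ECs. Their medians in the GFP+ and GFP- EC fractions were 0.535 and 0.520 CPM for Itgal and 1.84 and 0.995 CPM for Itgam. Itgb1 rose in both cell types, and its interaction was -0.09 ± 0.12 with an adjusted p of 0.620 (edgeR). Lama5, which also rose in both, had an interaction of -0.91 ± 0.75 (adjusted p = 0.376, edgeR). Lama3 and Lamc3 had at most 8.86 CPM in any HC pool.

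**Figure D5:**
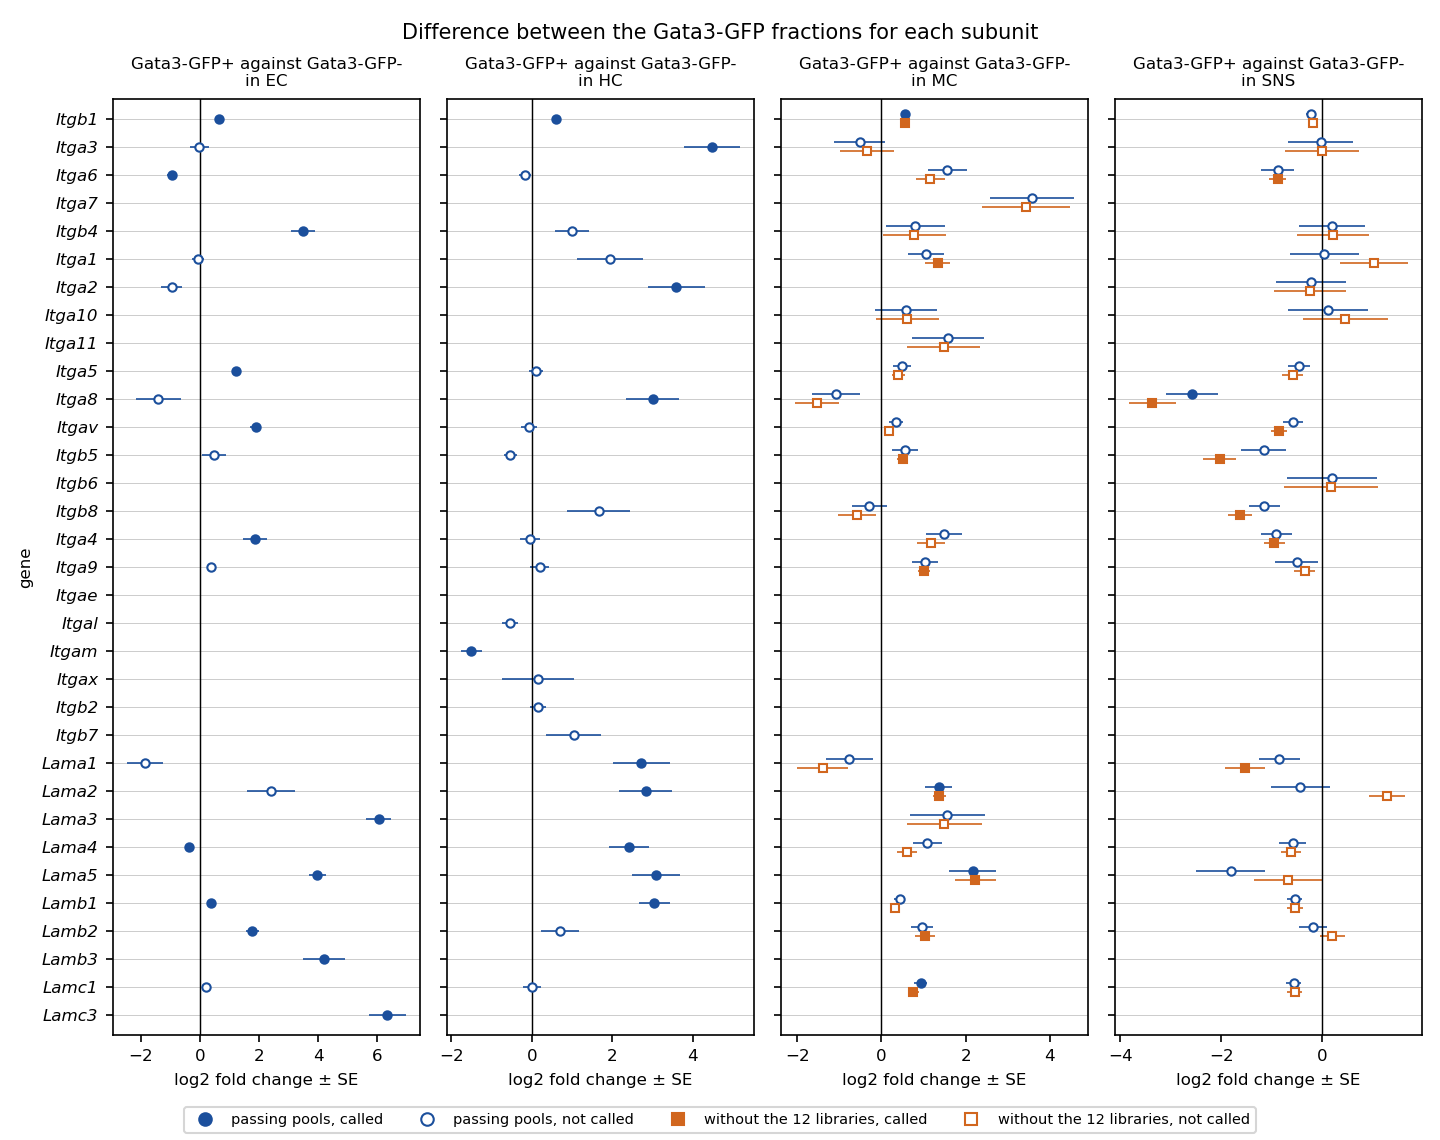
Log2 fold change of Gata3-GFP+ against Gata3-GFP- pools for each tested subunit in the 4 cell types, with the standard error as bars and filled symbols for genes past the test. Orange squares leave out the 12 libraries that go against their label: 8 genes in MCs and 7 in SNS cells are then past the test, in place of 4 and 1 over all passing pools.

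In the pools labelled MC, Gata3-GFP+ pools had higher levels of Lama5, Lama2, Lamc1 and Itgb1. Of 23 genes tested in 20 Gata3-GFP+ and 17 Gata3-GFP- pools, these 4 were higher and 0 lower, where 2.21% of all 16026 genes tested were higher and 2.15% lower. Without the 12 libraries 8 of 23 were higher and 0 lower, against 5.52% and 4.9% of 15226 genes. With edgeR, 0 members were lower at an unadjusted p under 0.05 in all passing pools and 2 without the 12. DESeq2 and the study's scanpy test called 0 lower, and edgeR without a filter on genes called 2. The scanpy test also lost 2 of the 4 higher calls, Lama2 (adjusted p = 0.0427) and Lama5 (0.0199), and in edgeR Lama5 was lost with ERCC scaling (0.0104) and Lama2 in 1 fit of all 8 populations (0.0715). The median log2 change of the members was 0.93 with and 0.76 without the 12 libraries, beside -0.01 and 0.01 for all genes.

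Lama5 ran from 0 to 37.7 CPM (median 17.7) in pools labelled Gata3-GFP+ MC and from 0 to 15.004 CPM (median 2.55) in those labelled Gata3-GFP- MC, with a log2 fold change of 2.17 ± 0.56 (adjusted p = 0.00868, edgeR). Leaving out the 12, its change was 2.24 ± 0.48 (adjusted p = 0.000964, edgeR) and the lowest GFP+ pool was 2.39 CPM. Lama2, the α chain of muscle and mesenchymal basement membranes, ran from 2.99 to 137.7 CPM (median 100.99) against 9.85 to 70.1 CPM (median 34.2), with 1.36 ± 0.32 (adjusted p = 0.00452, edgeR), and from 66.4 to 137.7 against 14.8 to 70.1 CPM without the 12, with 1.38 ± 0.16 (adjusted p = 8.66e-08, edgeR). Lamc1 ran from 54.9 to 152.1 CPM (median 75.7) against 19.005 to 68.7 CPM (median 42.7), with 0.93 ± 0.15 (adjusted p = 6.25e-05, edgeR). All 3 overlapped between the fractions in both sets of pools.

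Itgb1 rose by 0.55 with and without the 12 libraries, and without them its pools no longer overlapped, at 565 to 843 CPM in Gata3-GFP+ MCs and 371 to 541 CPM in Gata3-GFP- MCs. The other 4 genes called without the 12 were Itga1, a collagen receptor chain (1.34), Lamb2 (1.03), Itga9, a partner of β1 that binds tenascin (1.02), and Itgb5 (0.51). Itga7, the laminin-binding chain of muscle, had the largest log2 fold change, 3.57 and 3.43, and did not pass in either set (adjusted p = 0.0176 and 0.0197, edgeR). The other 14 tested genes did not pass in either set, and 10 were too low to test. Mural markers moved with the fraction: the 5 summed to 5078 to 11155 CPM in Gata3-GFP+ MCs and 860 to 4762 CPM in Gata3-GFP- MCs without the 12 libraries, and their part in these differences was not tested.

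The matrix list in MCs had 6 of 13 genes higher, beside 2.21% of all genes, and 8 without the 12 libraries, beside 5.52%, with Postn at 1.65, Fn1 at 1.34 and Hspg2 at 1.06 on the log2 scale in the latter. Dag1, the α-dystroglycan receptor of laminin α2, was higher by 0.79 and, without the 12, by 0.73. Of the activators and adaptors 3 of 15 were higher without the 12, with Fermt2 at 0.58, and with all passing pools none of 16 passed. Vcam1 was lower by 0.98 and Itgb3 higher by 1.93 without the 12.

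In the pools labelled SNS the direction was the other way, toward lower levels with Gata3-GFP. Of 22 genes tested in 18 Gata3-GFP+ and 19 Gata3-GFP- pools, 0 were higher and 1 was lower, Itga8, where 2.01% of 16143 genes were higher and 1.85% lower. Without the 12 libraries 0 were higher and 7 lower, where 4.94% of 15658 genes were higher and 5.48% lower. At an unadjusted p under 0.05 in edgeR, 0 members were higher in all passing pools and 1 without the 12, and DESeq2 and the study's scanpy test called 0 higher. The median log2 change of the members was -0.52 with and -0.55 without the 12, beside 0.00 and -0.01 for all genes.

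Itga8 ran from 0.147 to 13.4 CPM (median 3.05) in pools labelled Gata3-GFP+ SNS and from 0 to 63.9 CPM (median 20.1) in those labelled Gata3-GFP- SNS, with a log2 fold change of -2.58 ± 0.51 (adjusted p = 0.000876, edgeR). Leaving out the 12, it ran from 0.147 to 7.34 CPM against 1.24 to 63.9 CPM, with -3.36 ± 0.47 (adjusted p = 2.49e-06, edgeR). Itgb5 was 0.410 to 11.9 CPM (median 5.74) against 10.4 to 59.8 CPM (median 20.2) without the 12, with -2.03 ± 0.33 (adjusted p = 2.50e-05, edgeR), and 14 of 15 GFP+ pools were below every GFP- pool. Itgb8, an αV partner that binds latent TGF-β, was 2.68 to 10.47 CPM (median 4.84) against 6.61 to 41.2 CPM (median 13.2), with -1.63 ± 0.24 (adjusted p = 5.90e-06, edgeR). Pools of the 2 fractions overlapped in all 3 genes.

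Also lower without the 12 were Lama1 (-1.53), Itga4 (-0.95), Itga6 (-0.89) and Itgav (-0.86). Over all passing pools those 6 genes besides Itga8 had log2 changes of -1.16 to -0.57 and did not pass. Lama2 had 1.28 ± 0.36 without the 12 and did not pass (adjusted p = 0.0111, edgeR), and -0.44 over all passing pools, so its sign rests on those libraries. Other cell types moved with the fraction here as well. The 5 coelomic and gonadal markers summed to 0.218 to 6.74 CPM in Gata3-GFP+ SNS and 2.81 to 351 CPM in Gata3-GFP- SNS without the 12, the 8 mesenchymal ones to 110.8 to 336 against 384 to 917 CPM, and the 4 neuronal ones to 369 to 2485 against 53.3 to 545 CPM. Their part was not tested.

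Among the lists in SNS cells, Postn was lower by 1.52, and by 1.53 without the 12, and it was the single matrix gene called in both. Without the 12, activators and adaptors counted 1 higher and 4 lower of 15, beside 4.94% and 5.48% of all genes, with Vcl at -1.57, Parvb at 0.93, Pxn at -0.88 and Tln1, the talin that links integrins to actin, at -0.72. In the same pools F11r, a tight-junction ligand of αL, was lower by 3.03 and Sdc4 by 1.38 on the log2 scale.

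SNS pools were compared with MC pools as HCs were with ECs. Itga6, Itga4 and Lama4 were higher in SNS cells, and Lama2, Itga1, Itga9 and Itgb5 were lower. Of 33 genes, 6 were higher and 12 lower, where 10.1% of the 20080 genes tested were higher and 10.3% lower. Without the 12 libraries there were again 6 higher and 12 lower, against 17.2% and 16% of 19859 genes, and each called difference was larger except that of Itgb2, which was not called (-1.84, adjusted p = 0.104, edgeR), in place of which Itgb1 was (-0.25). The 6 higher, 18.2% of the 33, were then near the share over all genes. The median log2 change was -0.18 with and -0.51 without the 12, beside 0.00 and 0.01 for all genes. With ERCC scaling the median of all genes moved to 0.47 and the split of the members to 10 higher and 8 lower.

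The 3 largest rises were Itgb6, Itga6 and Itga2 in all passing pools and also without the 12. Itgb6, an αV partner of epithelia, was at most 5.44 CPM in any pool, with 3 Gata3-GFP+ and 3 Gata3-GFP- SNS pools at 10 counts, and a log2 difference of 3.39 ± 0.54 with and 4.24 ± 0.61 without the 12 (adjusted p = 2.45e-07 and 1.75e-09, edgeR). Itga6 had medians of 93.7 and 171 CPM in the SNS fractions against 34.2 and 16.96 CPM in the MC fractions, with 1.71 ± 0.22 (adjusted p = 3.43e-10, edgeR). Without the 12 its pools ran from 33.1 to 289 CPM against 0.817 to 70.4 CPM, with 2.67 ± 0.16 (adjusted p = 2.49e-31, edgeR). Itga2 was at most 3.70 CPM in SNS pools and 3.26 CPM in MC pools, with 1.58 ± 0.48 and, without the 12, 3.06 ± 0.53 (adjusted p = 0.00665 and 4.41e-07, edgeR). With all passing pools the call of Itga2 was lost with no filter on genes (adjusted p = 0.0102) and in a fit of the 4 E11.5 populations (0.028). Itga4 was higher by 1.44 and 2.14, Lama4 by 1.22 and 1.86, and Lamc1 by 0.47 and 0.62 on the log2 scale, with and without the 12 respectively.

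Among the falls, the largest with all passing pools was in Itgb2, a gene with at most 6.18 CPM in MC pools and 0.218 CPM in SNS pools (-3.34 ± 0.60, adjusted p = 3.37e-06, edgeR), which rests on the 12 libraries. Itga11, a collagen receptor chain of fibroblasts, fell by 2.63 ± 0.55 (adjusted p = 5.81e-05, edgeR), from means of 3.25 to 0.556 CPM, and by 2.82 without the 12. Lama3 fell by 2.60 ± 0.52 (adjusted p = 2.81e-05, edgeR) between means of 1.42 and 0.217 CPM, and by 4.56 ± 0.63 without the 12. Lama2 was lower by 1.65 with and 3.21 ± 0.36 without the 12 (adjusted p = 3.97e-14, edgeR for the latter), with 66.4 to 137.7 and 14.8 to 70.1 CPM in the MC fractions and 2.34 to 20.4 and 0.278 to 13.4 CPM in the SNS fractions. Itga9 had -1.48 and -2.63, and without the 12 its pools did not overlap, at 95.1 to 194 and 34.8 to 105.1 CPM in MCs and 5.75 to 22.7 and 5.64 to 33.5 CPM in SNS cells. Itgb5, Itga1, Lama5, Itga3, Itga5, Lamb2 and Itgav were lower in both sets. With all passing pools and ERCC scaling Itga3, Itga5, Itgav and Lamb2 kept their sign and lost the call, and so did Itga3 in the fit of the 4 E11.5 populations and Lamb2 with no filter.

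In the surrounding lists, 4 of 13 matrix genes were lower in SNS pools, beside 10.3% of all genes, and 7 without the 12, beside 16%, with Vtn at -5.92 and -6.10, Thbs2 at -2.35 and -4.37 and Fn1 at -1.86 and -3.52. Vcam1 was lower by 2.30 and 5.04. Activators and adaptors counted 1 higher and 6 lower of 21 with the 12 and 3 higher and 6 lower without, among them Fermt1 (2.82) and Parvb (1.48) higher in the latter.

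The GFP difference differed between SNS and MC pools for 15 of the 33 genes, where 8.88% of genes tested passed in either direction, and for 10 without the 12 libraries, where 6.51% did. All 10 had a more negative difference in SNS cells: Itga7 (-5.94), Lama5 (-2.89), Itgb5 (-2.54), Itga4 (-2.14), Itga6 (-2.05), Itga9 (-1.37), Lamc1 (-1.31), Itgav (-1.04), Itga5 (-0.98) and Itgb1 (-0.73). Itga7 had a median of 0 CPM in both SNS fractions, with means of 0.0858 and 0.665 CPM in GFP+ and GFP- pools. It was not tested within SNS cells and did not pass within MCs. At an unadjusted p under 0.05 in edgeR 3 members were more positive in SNS cells without the 12. Itgb1, higher with Gata3-GFP in ECs, HCs and MCs, had a log2 change of -0.18 ± 0.09 in SNS cells without the 12 and did not pass there (adjusted p = 0.203, edgeR).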

How the data were processed

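The measurement was RNA-seq of 20-cell pools. The authors deposited HTSeq counts per Ensembl gene for 160 pools, unnormalised, with 92 ERCC spike-in RNAs. The submitters' processing notes name GSNAP 2015-09-29, HTSeq 0.5.3p3 and mm10, whereas the study's methods name STAR, so the aligner is uncertain, and how overlapping genes and strand were counted is not given in the sources used here. Symbols and positions came from GENCODE M21. Pools needed more than 500000 reads, over 20% of reads on genes, under 20% mitochondrial and under 20% ERCC reads, and 7 failed. The rows that name no gene stayed out of library sizes and held 38.3% to 67.6% of a pool's reads. No 2 pools held identical counts.

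From the counts, TMM-scaled CPM and quasi-likelihood tests were computed with edgeR 4.0.16 in R 4.3.3. GFP fractions were fitted within a cell type, on genes that reached 10 counts in 5 or more pools. Contrasts between cell types and interactions came from a fit of all 8 populations. Calls needed a Benjamini-Hochberg adjusted p under 0.01, over all genes tested, and a log2 change beyond 0.1. The standard error is the log2 change divided by the square root of F. Genes given in full were the 3 largest changes in each direction among those called, and the other called members were given by value.

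The alternatives were DESeq2 1.42.0 (its Wald test, and its size factors in edgeR), ERCC and scran 1.30.0 size factors, other filters, all pools, 1 fit of all populations, the study's t-test in scanpy 1.11.5, and other thresholds. Leaving out the 12 E11.5 libraries, 3 HC pools or 1 EC pool was added after seeing the data. On simulated counts for the EC comparison, 132 of 190 tested changed genes were called, none with the wrong sign, and 4 unchanged genes were called: 56.6% of 2-fold and 83.5% of 4-fold changes were found. Each simulated pool was drawn independently, so the simulation cannot show how often unchanged genes are called when pools share a biological replicate. The members and gene lists were chosen with earlier results of these data known. Promoters came from RefSeq for GRCm38.p6.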

Additional observations from a re-analysis of the deposited data

Results flagged for a closer look

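The GFP difference differed between cell types for the genes below, by an interaction in the edgeR fit of 8 populations, and each value is the log2 change with Gata3-GFP in the first cell type minus that in the second. Between HCs and ECs it was 4.55 for Lama1, 4.47 for Itga2, 4.46 for Itga3, 4.42 for Itga8, 2.88 for Lama4 and 2.69 for Lamb1. It was -4.27 for Lama3, -3.81 for Lamc3, -2.50 for Itgb4, -2.44 for Itgal, -2.19 for Itgam, -1.99 for Itgav, -1.93 for Itga4 and -1.15 for Itga5. Of these, Itgal and Itgam were too low to test within ECs.

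Between SNS and MC pools, over all passing pools, it was -6.09 for Itga7, -4.00 for Lama5, -3.86 for Itga11, -2.46 for Itga6, -2.42 for Itga4, -1.74 for Itgb5, -1.69 for Lama4, -1.55 for Itga9, -1.51 for Lamc1, -0.99 for Lamb1, -0.96 for Itga5 and -0.80 for Itgb1. It was 3.95 for Lamc3, 3.91 for Itgal and 3.32 for Itgb6, 3 genes at 0 in every pool labelled Gata3-GFP+ MC, whose fitted values depend on the prior count and are no bound. Without the 12 libraries that go against their label Itga11 (-3.58), Lama4 (-1.23), Lamb1 (-0.88), Lamc3 (4.17), Itgal (3.14) and Itgb6 (2.05) no longer passed, and Itgav (-1.04) did. Itga7 had a median of 0 CPM in both SNS fractions over all passing pools.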

How the results depend on the processing

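Of 774 values of single called members under an alternative, 739 kept their direction and their call, 33 lost the call and 2 changed sign: Itgb1 (-0.019) and Lamb1 (-0.21) in ECs with ERCC scaling. Some of the 739 could not have changed. The 69 values at an adjusted p under 0.05 apply a looser threshold to the same fit. The 10 values of the HC fractions over all pools come from the same pools, since none of those failed. Members that an alternative no longer tested are not among the 774. That scaling moved the median log2 change of all genes to -0.60 in ECs, 0.35 in SNS pools, 0.46 for HCs against ECs and 0.47 for SNS against MC pools. It turned the split of all genes called higher and lower from 2932 and 2492 into 951 and 5685 in ECs, and from 2023 and 2060 into 7356 and 981 for SNS against MC pools. Members lower in Gata3-GFP+ ECs numbered 1 with DESeq2 size factors, 5 with ERCC scaling, 1 with no filter, 4 with the study's t-test, 4 at an adjusted p under 0.05 and 0 beyond a log2 change of 1. Members higher in Gata3-GFP+ HCs numbered 2 with the stricter filter, and those lower numbered 3 with the study's t-test and 3 at an adjusted p under 0.05. Higher members in MCs numbered 8 without the 12 libraries, 9 with the DESeq2 Wald test, 7 in 1 fit of 8 populations, 11 at an adjusted p under 0.05 and 2 beyond a log2 change of 1, and lower ones 2 with no filter and 2 in 1 fit. Lower members in SNS pools numbered 7 without the 12 libraries, 4 with the DESeq2 Wald test, 2 with ERCC scaling, 2 with the stricter filter, 3 over all pools, 2 with the study's t-test and 4 at an adjusted p under 0.05. Higher members for SNS against MC pools numbered 10 with ERCC scaling, and the interaction of SNS and MC pools was called for 9 members in a fit of the E11.5 pools and 10 without the 12 libraries. The cause of these changes was not tested. No paired analysis was possible because the columns carry no replicate number. Pools of 20 cells leave genes under about 10 counts close to the limit of detection.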
